A study of Homo sapiens with 6 samples.

Results

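The subunit genes of RNA polymerases I, II and III were the rows of the count table whose symbol is POLR1, POLR2 or POLR3 followed by a letter and at most 1 digit. This rule gave 33 of the 63643 rows, and all 33 were among the 23109 genes that passed the filter on low counts. By enzyme, 6 genes encode subunits of RNA polymerase I (Pol I) alone, 11 belong to Pol II alone, 9 to Pol III alone, 2 to Pol I and III, and 5 to all 3 enzymes. The names for roles used here are textbook ones. The rule does not match CRCP and POLR3GL, which also encode Pol III subunits, and their values are given for comparison.

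Every library was made from ΔGLO1 HEK293T cells, so the controls carry the GLO1 deletion too. HEK293T is an established line derived from human embryonic kidney. GLO1 starts the main route that clears methylglyoxal (MGO), a reactive by-product of glycolysis. The MGO group (n = 3) was exposed to 60 µM MGO for 4 h and the Control group (n = 3) was untreated. This dose is the one in the treatment protocol, and the MGO library names carry another number that the sources used here do not explain. The study asked whether MGO changes transcripts of the integrated stress response. The labels do not say whether the line is 1 clone, which part of GLO1 is missing, or whether each replicate was its own culture. The p-values therefore rest on the spread among these libraries, which may be technical.

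Nuclear RNA polymerases copy DNA into RNA: Pol I makes the precursor of the large ribosomal RNAs, Pol II makes messenger RNA, and Pol III makes transfer RNA and other short RNAs. Each enzyme has a pair of large subunits that form its active centre, a platform on which that pair assembles, a set of small subunits common to all the enzymes, a small zinc ribbon subunit, and a stalk where new RNA leaves. Pol I and Pol III also carry built-in subunits that resemble the Pol II initiation factors TFIIF and TFIIE.

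Total counts per library lay between 117427883 and 157639431 in Control and between 128270160 and 138680220 in MGO, and the 33 genes took 0.199 to 0.203% of counts in Control and 0.234 to 0.239% in MGO. Replicate 1 stood farthest from the others of its group, with a chi-square per degree of freedom of 49.3 and 54.4 against the other MGO libraries, which differed by 16.5, and of 31.7 and 23.8 against the other Control libraries, which differed by 3.80. GLO1 had counts in every library, at 102 ± 4.54 CPM (read counts relative to the scaled library size; SD, n = 3) in MGO and 37.3 ± 0.885 in Control. These counts check nothing, since the deleted part is not given. The summed level of 5 kidney epithelial markers was 1387 to 1571 CPM in MGO and 525 to 554 in Control. Most of it came from KRT8 and KRT18. KRT8, KRT18 and EPCAM rose, while PAX2 fell from 6.59 to 1.71 CPM and CDH1 from 7.09 to 2.40 CPM. Fibroblast markers summed to 5.21 to 5.78 CPM in MGO and 14.2 to 15.4 in Control. Of these, COL1A1 fell from 13.9 to 4.30 CPM and LUM rose from 0.729 to 1.13 CPM. Blood cell markers stayed under 1 CPM in all libraries, with HBB at 0. The part of these markers in the results was not tested.

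With MGO most large catalytic subunit genes fell and most other subunit genes rose. Rises were called in 20 of the 33 genes and falls in 10, and 3 missed the threshold (edgeR quasi-likelihood test, Benjamini-Hochberg adjusted p under 0.05 over all genes tested). Among all genes tested, 38.8% rose and 40.5% fell. None of the 6 large catalytic genes rose and 5 fell, and their log2 fold changes had a median of -1.2. Of the other 27 genes, 20 rose and 5 fell, with a median of 1.2. The median over all genes tested was -0.02. The CPM values of the groups did not overlap for the 20 genes that rose and the 10 that fell, beside 39.7% of all genes tested with MGO wholly higher and 41.8% with MGO wholly lower.

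CPM here use library sizes scaled by TMM, a method that sets the bulk of genes to no change. The labels name no spike-in RNA that would fix the absolute scale, so every change is relative to this scaling. Under library size alone the median log2 fold change over all genes shifted by -0.52, and 24.5% of genes tested rose while 55.8% fell. Under it 17 of the 33 subunit genes rose and 14 fell. Upper quartile scaling shifted the median over all genes by 0.17. In bulk RNA, fewer cells of a type and less RNA per cell cannot be told apart.

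**Figure D1:**
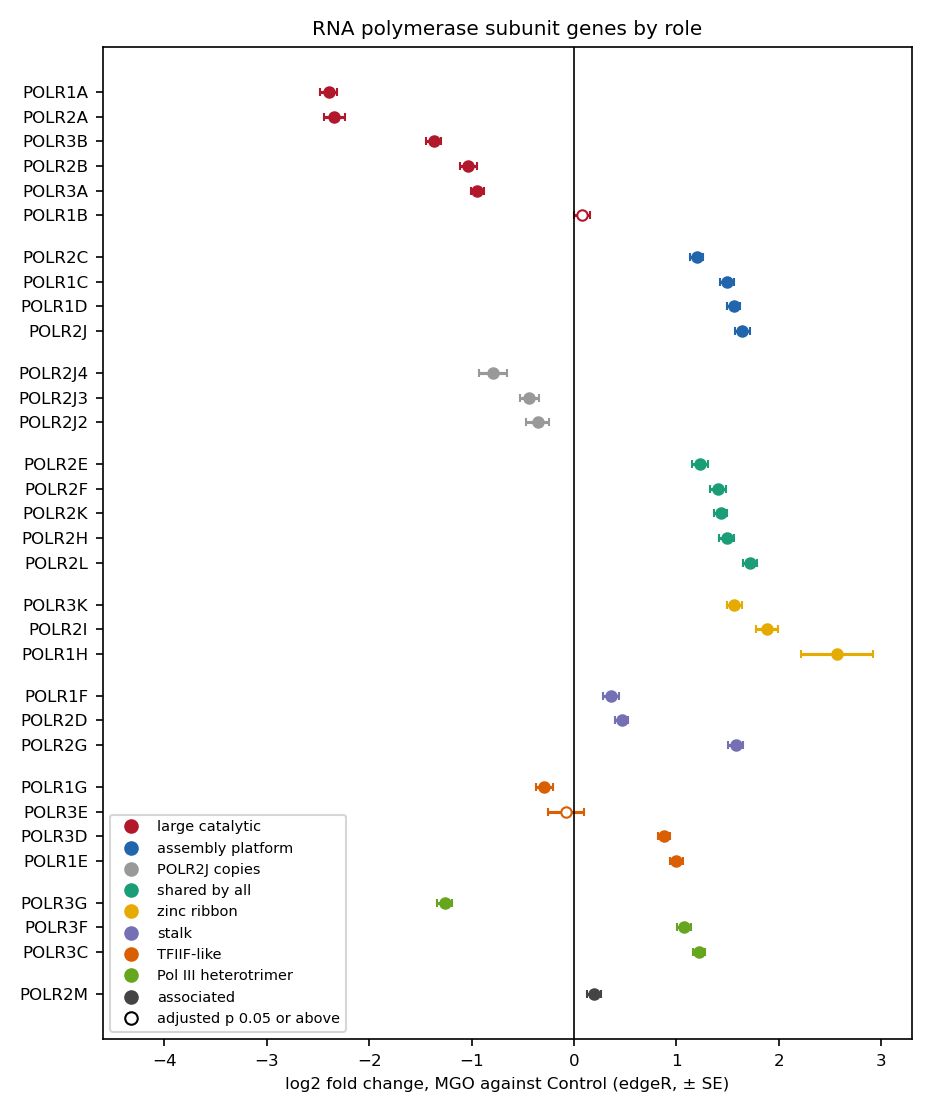
Log2 fold change of MGO against Control for 32 subunit genes, grouped by role; points are edgeR estimates and bars ± 1 SE. Filled points passed an adjusted p of 0.05 and the 2 open ones did not. The 5 filled large catalytic genes lie between -2.39 and -0.94, while the 5 subunits shared by all enzymes lie between 1.23 and 1.72.

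The largest fall was in POLR1A, the largest subunit of Pol I (chr2:86020216-86106155, minus strand, GENCODE 29 on GRCh38). It stood at 27.0, 23.2 and 25.7 CPM in the MGO libraries and 121, 138 and 139.6 CPM in the Control libraries. All MGO values lay far below all Control values. The level was 5.26-fold lower in MGO (log2 fold change -2.39, SE 0.08, edgeR adjusted p = 1.17e-10).

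Its partner in the active centre, POLR1B (chr2:112541915-112577150, plus strand), did not move with it. POLR1B was at 94.1, 80.5 and 77.8 CPM in MGO and at 75.4, 81.2 and 82.2 CPM in Control, so the groups overlapped. Its log2 fold change was 0.08 (SE 0.08, edgeR adjusted p = 0.358), with the sign turning to -0.0027 without MGO replicate 1. The call depended on the scaling: POLR1B was lowered under library size alone (-0.44, edgeR adjusted p = 0.000654) and raised under upper quartile scaling (0.25, edgeR adjusted p = 0.00695). Within a library, the ratio of POLR1A to POLR1B per kb of transcript does not depend on scaling. It was 0.763 to 0.808 in the Control libraries and 0.136 to 0.157 in the MGO libraries, with no overlap.

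POLR2A encodes the largest subunit of Pol II, which carries the repeated tail that recruits RNA processing factors (chr17:7484366-7514616, plus strand). Its CPM were 3.46, 2.75 and 3.41 in MGO and 15.1, 17.6 and 16.1 in Control. The groups were well apart, with a level 5.07-fold lower in MGO (log2 fold change -2.34, SE 0.10, edgeR adjusted p = 6.40e-10). In Control its level per kb was 2.41 CPM against 49.9 CPM for its partner POLR2B. Whether reads of POLR2A were lost in counting was not tested.

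POLR2B, the other large Pol II subunit (chr4:56977722-57031168, plus strand), stood at 104, 85.6 and 84.4 CPM in MGO against 187, 185 and 189 CPM in Control. MGO replicate 1 was the highest of its group and still far below the lowest Control value. The level fell by 1.03 on the log2 scale (SE 0.08, edgeR adjusted p = 1.23e-07). The ratio of POLR2A to POLR2B per kb was 0.0448 to 0.0529 in Control and 0.0179 to 0.0224 in MGO.

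Both large Pol III subunits also fell. POLR3A (chr10:77969251-78029545, minus strand) was at 56.0, 49.9 and 50.3 CPM in MGO and 95.3, 102 and 103 CPM in Control. POLR3B (chr12:106357658-106510198, plus strand) was at 15.6, 13.9 and 13.9 CPM in MGO and 35.9, 37.5 and 38.7 CPM in Control. Neither gene's groups overlapped. POLR3A fell by 0.94 (SE 0.07, edgeR adjusted p = 5.29e-08) and POLR3B fell by 1.37 (SE 0.07, edgeR adjusted p = 2.84e-09) on the log2 scale. With the trend on transcript length, span and GC removed, POLR3A did not pass (-0.11, edgeR adjusted p = 0.0603) and POLR3B fell by 0.36. The ratio of POLR3A to POLR3B per kb was 2.68 to 2.73 in Control and 3.62 to 3.66 in MGO, a shift in the direction opposite to that of the Pol I and Pol II pairs.

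**Figure D2:**
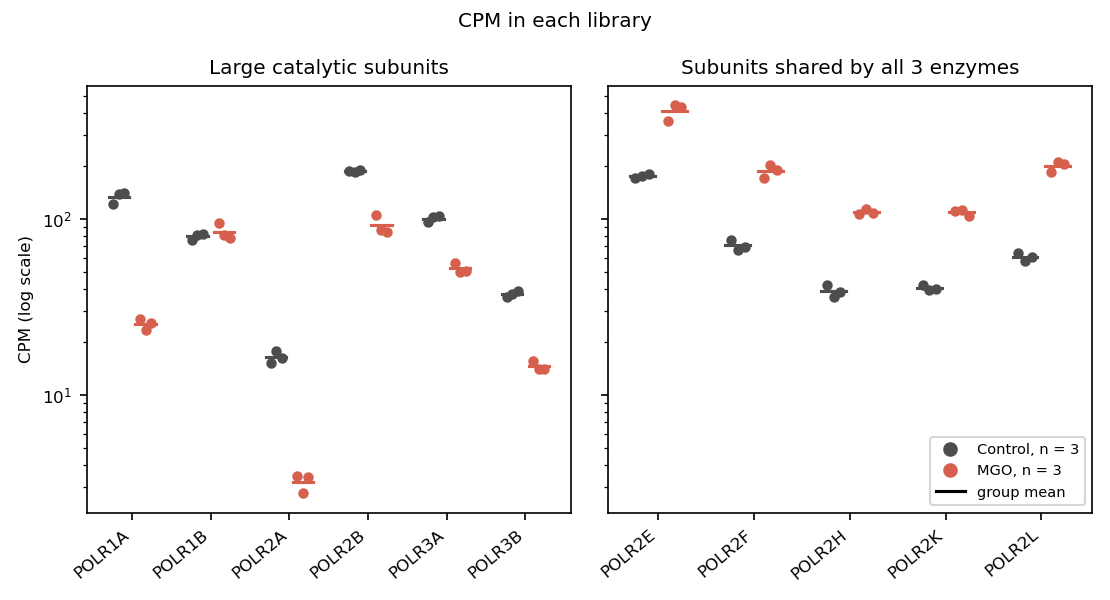
CPM on a log axis in each library for the 6 large catalytic subunits (left) and the 5 subunits shared by all enzymes (right); points are libraries and lines group means (n = 3 each). MGO points lie below Control points for every large subunit but POLR1B, and above them for every shared subunit.

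The 5 subunits shared by Pol I, II and III all rose, by 1.23 to 1.72 on the log2 scale, with a median of 1.43. They are small proteins that frame the common core of the enzymes. POLR2L, a zinc-binding subunit needed for the core to assemble, showed the largest rise of the 5. Its CPM were 184, 209 and 204 in MGO and 63.5, 57.4 and 60.7 in Control. MGO values were 3.29-fold higher on average with no overlap (log2 fold change 1.72, SE 0.07, edgeR adjusted p = 4.22e-10), and 22.5% of its exonic bases overlap CD151 on the opposite strand.

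POLR2E stood at 359, 439.7 and 431 CPM in MGO and at 171, 174 and 179 CPM in Control. Here MGO replicate 1 was the lowest of its group and still above all Control values. POLR2E rose by 1.23 (SE 0.08, edgeR adjusted p = 1.86e-08). POLR2H went from 38.7 ± 3.20 to 109 ± 4.00 CPM (SD, n = 3), POLR2F from 70.4 ± 5.15 to 187 ± 15.3 CPM, and POLR2K from 40.3 ± 1.41 to 109 ± 4.09 CPM. Their log2 fold changes were 1.49, 1.41 and 1.43, each past the threshold with groups that did not overlap.

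The assembly platform, a pair of proteins on which the large subunits are built, rose in all the enzymes. POLR1C and POLR1D form it in both Pol I and Pol III, and POLR2C and POLR2J form it in Pol II. POLR1C was at 101, 90.0 and 96.2 CPM in MGO and 35.2, 33.1 and 33.8 CPM in Control. No MGO value came near a Control value, and the log2 fold change was 1.49 (SE 0.07, edgeR adjusted p = 6.87e-10). POLR1D rose by 1.56, POLR2C by 1.2 and POLR2J by 1.64, and the 4 genes had a median of 1.53.

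Zinc ribbon subunits, which help each enzyme cleave its RNA or leave the template, also rose in all 3 enzymes. POLR3K of Pol III stood at 102, 116 and 111 CPM in MGO and at 38.7, 36.0 and 36.6 CPM in Control. These groups were wide apart, with a log2 fold change of 1.57 (SE 0.07, edgeR adjusted p = 6.82e-10). POLR2I of Pol II was at 35.5, 48.9 and 47.9 CPM in MGO and 12.4, 11.7 and 11.6 CPM in Control. It rose by 1.89 on the log2 scale without overlap (SE 0.11, edgeR adjusted p = 6.51e-09). For POLR2I, 79.6% of exonic bases overlap genes on the opposite strand, chiefly TBCB, and the sources used here do not say whether counting used strand. POLR1H of Pol I had only 23, 21 and 33 counts in MGO and 6, 6 and 7 in Control, under 1 CPM in both groups. Its log2 fold change was 2.57 (SE 0.35, edgeR adjusted p = 2.14e-05), the largest rise of the 33 and the one with the largest SE. An antisense gene overlaps 24.5% of its exonic bases.

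Stalk subunits bind RNA as it leaves, and the rises of those described here differed in size. POLR2G of Pol II rose with the shared subunits, from 49.7 ± 3.79 to 148 ± 7.04 CPM (SD, n = 3), a log2 fold change of 1.58 (SE 0.07, edgeR adjusted p = 9.36e-10). Its stalk partner POLR2D was at 118, 133 and 124 CPM in MGO and 90.6, 89.2 and 91.8 CPM in Control. The groups did not overlap, but the difference was small: POLR2D rose by 0.46 (SE 0.06, edgeR adjusted p = 2.16e-05), and library size alone turned its sign to -0.06. POLR1F of Pol I rose by 0.36 (SE 0.08, edgeR adjusted p = 0.000822), with the sign turning to -0.16 under library size alone. CRCP, which takes part in the stalk of Pol III, went from 39.0 ± 0.791 to 89.4 ± 1.246 CPM (SD, n = 3) and rose by 1.2 (SE 0.06, edgeR adjusted p = 1.45e-09).

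TFIIF-like subunits form a pair in Pol I, POLR1E with POLR1G, and a pair in Pol III, POLR3D with POLR3E. In each pair 1 gene rose and the other did not. POLR1E was at 53.2, 55.1 and 51.7 CPM in MGO and 26.1, 26.5 and 27.6 CPM in Control. Its groups did not overlap, and it rose by 0.997 on the log2 scale (SE 0.06, edgeR adjusted p = 1.28e-08). POLR1G was at 9.59, 11.3 and 12.1 CPM in MGO and 13.6, 13.3 and 13.4 CPM in Control. It fell by 0.29 (SE 0.09, edgeR adjusted p = 0.00858), a call that was lost under upper quartile scaling (-0.11, edgeR adjusted p = 0.255). Genes on the opposite strand overlap 45.1% of its exonic bases. POLR3D rose by 0.88, from 40.3 ± 0.279 to 74.4 ± 1.75 CPM (SD, n = 3; edgeR adjusted p = 2.13e-08). POLR3E had about 0.5 CPM in both groups, which overlapped, with a log2 fold change of -0.08 (SE 0.18, edgeR adjusted p = 0.706) that became 0.10 under upper quartile scaling and 0.05 without MGO replicate 3. Under library size alone POLR3E was lowered (-0.60, edgeR adjusted p = 0.00840).

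In the Pol III heterotrimer, which opens promoters and resembles TFIIE, POLR3C and POLR3F rose while POLR3G fell. POLR3C went from 54.4 ± 1.04 to 127 ± 4.25 CPM (SD, n = 3) and POLR3F from 26.7 ± 0.446 to 56.3 ± 3.85 CPM, log2 fold changes of 1.22 and 1.08. POLR3G stood at 5.03, 4.96 and 4.63 CPM in MGO and 11.8, 11.3 and 11.9 CPM in Control. The groups did not overlap, and POLR3G fell by 1.26 (SE 0.08, edgeR adjusted p = 9.48e-09). It is the form of this subunit known for its high level in stem and tumour cells, and POLR3GL is its paralogue in most differentiated cells. POLR3GL was at 10.3, 9.58 and 9.004 CPM in MGO and 7.98, 6.11 and 6.73 CPM in Control, a rise of 0.47 (SE 0.10, edgeR adjusted p = 0.000983) that became -0.05 under library size alone and with a transcript length, gene span and GC trend removed. With that trend removed POLR3G still fell, but by 0.63 (edgeR adjusted p = 2.97e-06). The ratio of POLR3G to POLR3GL per kb, which scaling does not move, was 0.452 to 0.567 in Control and 0.149 to 0.158 in MGO. This ratio is not corrected for the trend, and a gene on the same strand overlaps 21.2% of the exonic bases of POLR3GL.

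POLR2J has copies on chromosome 7, and these went the other way from POLR2J. The first 60 coding bases of POLR2J, POLR2J2 and POLR2J3 are shown because the counts of these genes depend on telling such bases apart. They read 5′ to 3′ from the transcripts of GENCODE 29, with capitals for the bases after the first 52, which are the same in POLR2J, POLR2J2 and POLR2J3. The capitals of POLR2J are AGA and then TCACC, which also opens the capitals of POLR2J2 and POLR2J3. POLR2J4 was not compared in this way.
POLR2J: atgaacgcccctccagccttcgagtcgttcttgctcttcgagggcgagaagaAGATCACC
POLR2J2: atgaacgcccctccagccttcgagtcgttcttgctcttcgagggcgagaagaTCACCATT
POLR2J3: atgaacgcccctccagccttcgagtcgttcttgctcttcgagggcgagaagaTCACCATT
Of all stretches of 100 bases in POLR2J, 25.5% also occur in transcripts of another gene. The share was 100% for POLR2J2, 91.8% for POLR2J3 and 30.8% for POLR2J4, which RefSeq lists as a transcribed pseudogene. The sources used here do not say how reads that match several places were counted, so these counts are uncertain. POLR2J stood at 157, 187 and 179 CPM in MGO and 56.7, 54.9 and 55.8 CPM in Control. Its groups did not overlap. Per kb of transcript, Control levels were 65.0 CPM for POLR2J, 8.57 for POLR2J3, 1.59 for POLR2J2 and 0.339 for POLR2J4. POLR2J3 had 6.03 ± 0.162 CPM in MGO and 8.18 ± 0.986 CPM in Control (SD, n = 3). POLR2J3 fell by 0.44, POLR2J2 by 0.35 and POLR2J4 by 0.79 on the log2 scale. POLR2J4 reversed to 0.58 with the trend on length, span and GC removed, and POLR2J2 did not pass under upper quartile scaling (-0.18, edgeR adjusted p = 0.168) or without Control replicate 2 (edgeR adjusted p = 0.0646). POLR2M, which encodes a protein that binds Pol II and restrains it, was at 29.6, 26.5 and 27.2 CPM in MGO and 23.8, 25.02 and 23.8 CPM in Control. Its rise of 0.20 (SE 0.07, edgeR adjusted p = 0.0182) became -0.33 under library size alone and did not pass without Control replicate 1 or Control replicate 3 (edgeR adjusted p = 0.0532 and 0.0907). GCOM1 shares 21.1% of its exonic bases on the same strand.

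In each of the 3 enzymes, no gene of the large pair rose, and among the other subunits more genes rose than fell. Of the genes particular to Pol I, 3 of 6 rose and 2 fell (median log2 fold change 0.22), for Pol II 6 of 11 rose and 5 fell (0.20), and for Pol III 4 of 9 rose and 3 fell. Leaving out the large pair, Pol I had 3 of 4 raised and 1 lowered (0.68), and Pol III had 4 of 7 raised and 1 lowered (0.88). Pol II had 6 of 9 raised and 3 lowered (0.46). Those 3 are the POLR2J copies, and without them and POLR2M all 5 remaining Pol II genes rose, with a median of 1.58. Among all genes tested 38.8% rose and 40.5% fell, and shares near these from so few genes say little about an enzyme. No test of a difference between the enzymes was run. Genes outside the large pairs that fell were POLR1G in Pol I, the POLR2J copies in Pol II, and POLR3G in Pol III.

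Levels can be compared between genes only per length, here as CPM per kb of transcript. Leaving out the copies and POLR2M, the 29 remaining genes ranged from 0.0508 CPM per kb (POLR1H) to 122.9 (POLR2E) in Control, with a median of 24.1. In MGO they ranged from 0.201 (POLR3E) to 321 (POLR2F), with a median of 26.0. The median level of the 5 shared genes was 4.00 to 4.88 times that of the 6 large ones in the Control libraries and 24.0 to 30.6 times in the MGO libraries. POLR2B per kb was 0.702 to 0.767 of POLR2L in Control and 0.0975 to 0.135 in MGO. These ratios are taken within a library and do not depend on scaling, and their ranges did not overlap between the groups. Levels per kb and the size of the ratios do depend on the transcript length taken for each gene. Other lengths were not tried, and for POLR3A the length used, 4154 nt, is below its coding length of 4170 nt.

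**Figure D3:**
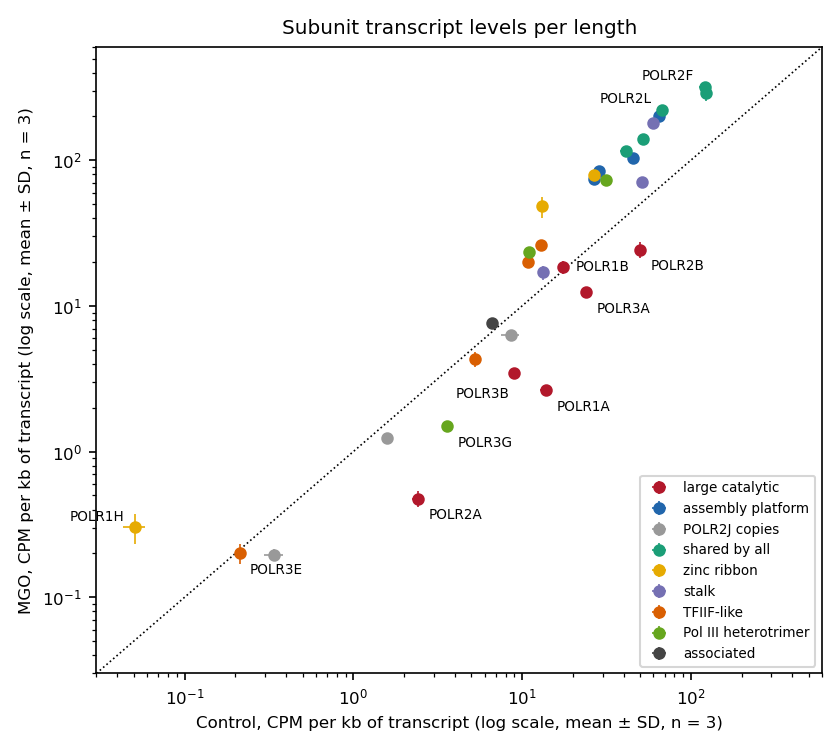
Mean CPM per kb of transcript in Control (x axis) and MGO (y axis), both on log axes, for 32 of the genes coloured by role; bars are ± SD (n = 3) and the dotted line marks equal levels. The shared subunits lie at the upper right above the line, up to 321 CPM per kb for POLR2F in MGO, and 5 of the 6 large catalytic subunits lie below it.

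Of the 6 large subunits, 5 have transcripts of 4000 nt or more, and fold changes went with length across all genes. Across the 33 genes, log2 fold change and log transcript length had Pearson's r = -0.79 and Spearman's rho = -0.80, and without the large subunits (n = 27) -0.65 and -0.71. Across all 21772 tested genes with an annotation the values were -0.28 and -0.37. These are descriptions, since genes share the libraries and are not replicates. Of 9 subunit genes under 1000 nt, 8 rose with a median of 1.58, where 49.0% of all genes of that length rose with a median of 0.53. At 1000 to 2000 nt, 6 of 7 rose with a median of 1.23, where 55.1% of all genes rose with a median of 0.47. At 2000 to 4000 nt, 6 of 11 rose and 3 fell with a median of 0.20, where 33.9% of all genes rose and 44.4% fell with a median of -0.14. At 4000 nt or more, 5 of 6 fell with a median of -1.16, where 78.1% of all genes fell with a median of -1.17. The median of the long subunit genes was thus close to that of all long genes, and the median of the short ones lay above that of all short genes. All genes here means tested genes of any type and level. A comparison with coding genes of similar level was not made.

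**Figure D4:**
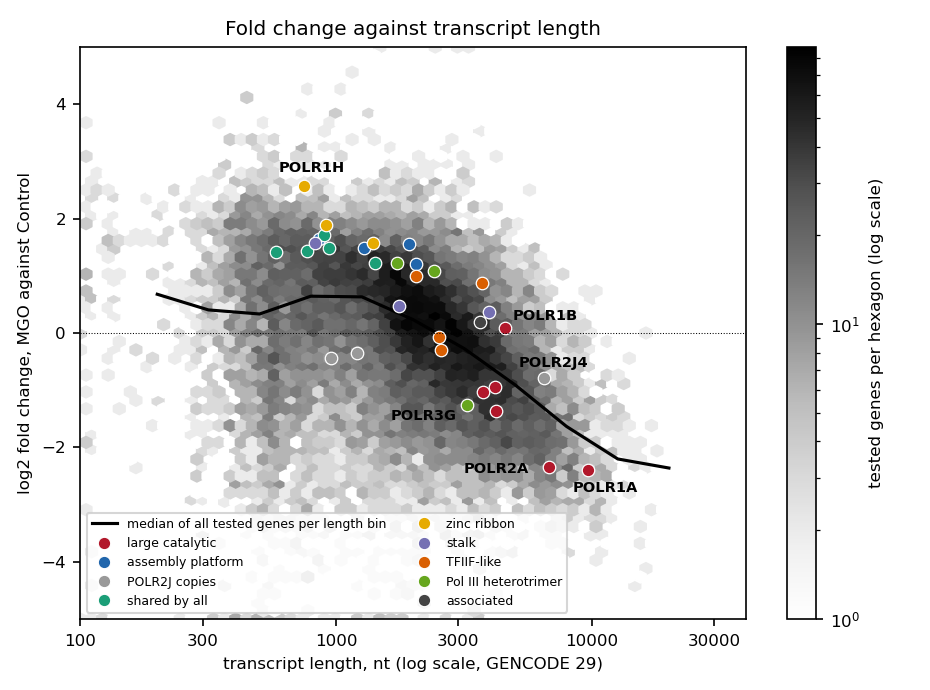
Log2 fold change against transcript length (log axis) for all tested genes (grey hexagons, darker for more genes, with values beyond ±5 drawn at the edge) and 32 subunit genes (coloured by role); the black line is the median of all genes per length bin. POLR1A and POLR2A lie near -2.39 and -2.34 among the longest subunit transcripts, and most short subunit genes lie above the line.

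When the trend of each library on length of transcript, span of gene and GC content was removed, 21 subunit genes rose, 8 fell and 4 did not pass, beside 44.8% and 34.1% of all genes. The median of the large subunits moved to -0.37 and that of the others to 0.89, while the median of all genes moved by 0.17. POLR2A still fell by 1.26 and POLR1A by 0.67 (edgeR adjusted p = 5.37e-09 and 7.92e-09). POLR1B rose by 0.81 under this setting (edgeR adjusted p = 5.03e-09). POLR2B fell by 0.39, and POLR2D (0.03, edgeR adjusted p = 0.610) did not pass.

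Promoter sequences of RefSeq (GRCh38.p14; 250 bases before to 50 after the start) were matched for 23 of the 33 genes and searched on both strands. The GC box GGGCGG, a site for Sp family factors, was in 15 of the 23 (65.2%), beside 44.95% of all promoters and 66.2% of the promoters of tested genes. The ETS core CCGGAAG was in 9 (39.1%), beside 10.3% and 16.5%. It was in the promoters of POLR1B, POLR1C, POLR2C, POLR2D, POLR2F, POLR2J2, POLR2M, POLR3A and POLR3C, which include genes that rose, fell and did not pass. The E-box CACGTG was in 4 (17.4%), beside 7.26% and 9.41%, and the TATA box TATAAA was in 1, POLR2M (4.35%), beside 11.5% and 6.65%. The NRF1 palindrome was in POLR2F, the motif AAGATGGCG was in POLR1C, and the ZBTB33 palindrome was in none. A match is a description of letters in this window. The 100 bases before the start are shown for POLR2A, which fell, and POLR1D, which rose, 5′ to 3′ with GC boxes in capitals. The windows are chr17:7484266-7484365 and chr13:27620643-27620742, both on the plus strand of GRCh38.p14.
POLR2A: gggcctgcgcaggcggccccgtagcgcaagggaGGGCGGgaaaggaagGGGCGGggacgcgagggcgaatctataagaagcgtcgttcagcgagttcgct
POLR1D: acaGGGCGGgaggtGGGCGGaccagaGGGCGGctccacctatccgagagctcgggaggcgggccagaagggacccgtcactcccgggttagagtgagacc
Both windows are rich in G and C, at 68.0% and 70.0%, and hold 2 and 3 GC boxes, although the genes went opposite ways.

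Counts for the factors that work with the enzymes are set beside 38.8% raised and 40.5% lowered among all genes tested, and a share near these says little about a list. Of 9 Pol I factors, 6 rose and 3 fell. TAF1D, a subunit of the Pol I promoter selectivity factor, rose by 1.86, from 66.6 ± 3.58 to 242 ± 28.8 CPM (SD, n = 3). RRN3, which brings Pol I to its promoter, rose by 2.04 from a low level of 0.232 ± 0.0513 CPM. UBTF, which marks active ribosomal DNA, fell by 0.60, and TCOF1, a nucleolar factor of ribosomal RNA synthesis, fell by 0.68.

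Of 29 Pol II general initiation factors tested, 17 rose and 9 fell. GTF2B, the factor that bridges promoter and polymerase, rose by 1.69, from 40.3 ± 1.55 to 130 ± 7.30 CPM (SD, n = 3), and TAF10 rose by 1.67. TAF1, the largest TFIID subunit, fell by 2.93, from 93.3 ± 6.46 to 12.3 ± 2.78 CPM, and GTF2A1 fell by 2.34. GTF2H4 is listed at 0 in all libraries. Of 20 elongation and pausing factors tested, 9 rose and 7 fell. ELOB and ELOC, small partners in the elongin complex, rose by 2.04 and 1.44, while SUPT6H and SUPT16H, which handle histones during elongation, fell by 1.18 and 1.06. NELFE is listed at 0 in all libraries.

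Of 16 Pol III factors, 9 rose and 6 fell. BRF2, an initiation factor for Pol III genes with upstream promoters, rose by 2.25, from 6.02 ± 0.455 to 28.6 ± 1.26 CPM (SD, n = 3), and SNAPC2 rose by 1.38. GTF3C1, the largest subunit of TFIIIC, fell by 1.89, from 308 ± 19.1 to 82.9 ± 4.28 CPM, and BDP1 fell by 2.16 from 0.896 ± 0.282 CPM. Of 16 assembly and import factors tested, 9 rose and 7 fell. UXT and PIH1D1, members of prefoldin-like and R2TP chaperone complexes, rose by 1.71 and 1.68, and RPRD1A and RPAP2, which bind or modify the Pol II tail, fell by 0.91 and 0.62. The list medians were 0.52 for Pol I factors, 0.70 for Pol II general factors, 0.09 for elongation and pausing factors, 0.42 for Pol III factors and 0.87 for assembly and import factors.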

How the data were processed

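The libraries, 3 MGO and 3 Control, hold polyA RNA read as 100 bp pairs after 8 PCR cycles, per the labels' protocols. The labels also give an RNA integrity number of 10. The authors deposited a table of raw counts. Its genome build was hg38, and STAR 2.7.0a, Trim Galore 0.6.10 and featureCounts 2.0.6 are among the tools named without settings, per the submitters' processing notes. The annotation release, the strand setting and the handling of reads that match several places: not given in the sources used here. Here edgeR 4.0.16 (R 4.3.3) fitted MGO against Control after filterByExpr and TMM scaling. Its quasi-likelihood p-values were Benjamini-Hochberg adjusted over all genes tested, with a threshold of 0.05. The SE was derived as the size of the log2 fold change over the root of F. CPM use TMM-scaled library sizes. Coordinates and transcript lengths (median over basic transcripts, for POLR2A the longest) came from GENCODE 29. The steps were tested on simulated data. Alternatives were RLE, library size and upper quartile scaling, other filters, DESeq2 1.42.0, limma-voom 3.58.1, robust dispersions, a 1.2-fold threshold, a length, span and GC trend removed, a replicate block, each library left out, and members left out. The members, lists and tests were chosen with earlier results of these data known. Every member is named, with CRCP, POLR3GL and GLO1, except that 1 counted member is not reported here by itself or drawn, and each factor list gives the 2 genes that rose most and the 2 that fell most among those past the threshold. Within each group, every pair of libraries differed beyond sampling noise and each library counted as 1 replicate.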

Additional observations from a re-analysis of the deposited data

How the results depend on the processing

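Over 32 subunit genes and 17 alternatives, 519 of 542 pairs of a gene and a setting kept direction and side of the threshold, and 23 genes did so in all. A filter of 1 CPM in 3 libraries left POLR1H and POLR3E untested. Leaving out each library gave 19 to 21 subunit genes raised, 9 to 10 lowered, and 5 large catalytic genes lowered. The median log2 fold change of the large subunits ranged from -1.28 to -1.16 and that of the others from 1.16 to 1.21. Library size alone gave 5673 raised among all tested genes, a large-subunit median of -1.72 and a median of 0.67 for the others. It turned POLR1B to -0.44, POLR1F to -0.16, POLR2D to -0.063, POLR2M to -0.33 and POLR3GL to -0.053. Upper quartile scaling gave medians of -1.03 and 1.37 and turned POLR3E to 0.10. Without a filter on low counts the median of the others was 1.17. With the trend on length, span and GC removed the medians were -0.37 and 0.89, POLR2J4 turned to 0.58 and POLR3GL to -0.054. Without the POLR2J copies and POLR2M the median of the others was 1.23. In leave-one-out fits POLR1B ranged from -0.0027 to 0.14 and POLR3E from -0.14 to 0.049. The cause of these moves was not tested.

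Whether a replicate number marks a shared culture or day is not given. The correlations of same-numbered deviations were 0.041, 0.018 and 0.013, within the range of differently numbered ones (-0.051 to 0.044). With a replicate block 8869 of all tested genes rose and 9299 fell. With the replicate block and the trend removed together, the medians were -0.37 and 0.89, POLR2J4 was at 0.58 and POLR3GL at -0.052.

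An alternative chosen after seeing the data left out 11 subunit genes (POLR1G, POLR1H, POLR2A, POLR2I, POLR2J, its copies, POLR2L, POLR2M and POLR3E). All but POLR2A had over 20% of exonic bases overlapping another gene, over 20% of 100-base stretches shared, or under 1 CPM in both groups. POLR2A was added by name, with no shared or overlapping bases in GENCODE 29, so the large-subunit median here lacks it. Of the 22 kept, 15 rose and 5 fell, beside 38.8% raised and 40.5% lowered among all genes tested. The large-subunit median was -1.03. Sampling depth limits POLR1H, with 6 to 33 counts per library, and POLR3E.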

Other observations

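Several subunit genes share exons with a gene on the opposite strand, and these neighbours moved in either direction. TBCB, a tubulin folding cofactor that overlaps POLR2I, went from 189 ± 4.17 to 451 ± 35.7 CPM (SD, n = 3), and ERCC1, a DNA repair gene that overlaps POLR1G, went from 42.0 ± 0.448 to 89.7 ± 8.66 CPM while POLR1G fell. XPO5, a nuclear export receptor that overlaps POLR1C, went from 172 ± 6.62 to 96.3 ± 2.34 CPM while POLR1C rose, whereas YIPF3 and LRRC73, which also overlap POLR1C, rose by 1.57 and 0.48 on the log2 scale. MBLAC2 overlaps POLR3G and fell by 2.06 on the log2 scale (edgeR adjusted p = 2.53e-10), beside the fall of POLR3G by 1.26. POLR1HASP, the antisense partner of POLR1H, fell by 0.98 (edgeR adjusted p = 5.63e-05) while POLR1H rose. These genes were picked for their overlap in GENCODE 29, and those named were chosen after their values were seen.

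POLR1H and the factors GTF2H4 and NELFE, which had few or no counts, all lie in the stretch of chromosome 6 that holds the major histocompatibility complex. Among 182 coding genes placed by GENCODE 29 between positions 29000000 and 34000000 of that chromosome, 153 (84.1%) had under 1 CPM in both groups, against 280 of 855 (32.7%) elsewhere on the chromosome. In all 6 libraries 59 of the 182 (32.4%) were at 0, against 42 of 855 (4.91%) elsewhere. The stretch was chosen after these values were seen.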
